A study of Mus musculus with 20 samples.

Results

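Complement is a system of blood and tissue proteins that tags particles and cell surfaces for removal. Its hippocampal transcripts were followed here through 8 genes, C1qa, C1qb, C1qc, C3, C4b, C3ar1, C5ar1 and Serping1, taken by gene symbol from a table of RNA-seq read counts. Each symbol matched 1 gene, so the members were 8 of 48709 genes, and all 8 were among the 19797 genes with enough counts to be tested.

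The hippocampus of young adult C57BL/6J mice was sequenced to ask how exposure before birth to nPM, the nano-sized particulate matter of urban air, changed its transcripts in each sex. Dams breathed nPM, or filtered air as the control, for 5 hours a day on 3 days a week from gestational day 2 until birth. There were 5 control females aged 17.71 to 18.29 weeks, 5 nPM females aged 18 to 18.29 weeks, 5 control males aged 18.57 to 19.14 weeks and 5 nPM males aged 18.86 to 19.14 weeks, all without a transgene named in the labels. The counts assigned to genes were 19092067 to 38663408 per sample, with a median of 29468930. The labels do not give the litter of a sample, so littermates could not be accounted for. Each library was made from whole hippocampal tissue of brains rinsed with saline, in which cell types are mixed. Fewer cells of a type and less RNA per cell cannot be told apart in such samples. All 8 marker genes of hippocampal neurons were detected in every sample, and the most abundant of them, Neurod6, had a mean of 74.5 RPKM, reads scaled to the length of the gene and the size of the library.

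In the classical pathway, C1q recognizes antibodies or other tags, and its partner proteases then cut C4 and C2, which together lead to cleavage of the central component C3. Fragments of C3 and C5 signal through the receptors C3ar1 and C5ar1, and Serping1, the C1 inhibitor, blocks the C1 proteases. In the brain, microglia are the main makers of C1q, and C1q and C3 are known for tagging synapses that microglia remove.

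Per length, the C1q chains had the highest mean levels of the members. Mean levels over the 20 samples were 25.6 ± 4.55 RPKM for C1qa (SD, n = 20), 22.3 ± 3.73 for C1qb and 11.1 ± 2.11 for C1qc, followed by C4b at 7.79 ± 1.65 and Serping1 at 2.27 ± 0.899. C3 was at 0.581 ± 0.244 RPKM, C3ar1 at 0.513 ± 0.0814 and C5ar1 at 0.219 ± 0.0970. Together the C1q chains made up 83.7% of the summed RPKM of the 8 genes. The order was the same in every sample for most neighbours: C1qb exceeded C1qc, C1qc exceeded C4b, C4b exceeded Serping1, Serping1 exceeded C3 and C3ar1 exceeded C5ar1 in 20 of 20 samples. C1qa exceeded C1qb in 19 of 20 samples by a mean ratio of 1.15, and C3 exceeded C3ar1 in 14 of 20 by a mean ratio of 1.17.

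**Figure D1:**
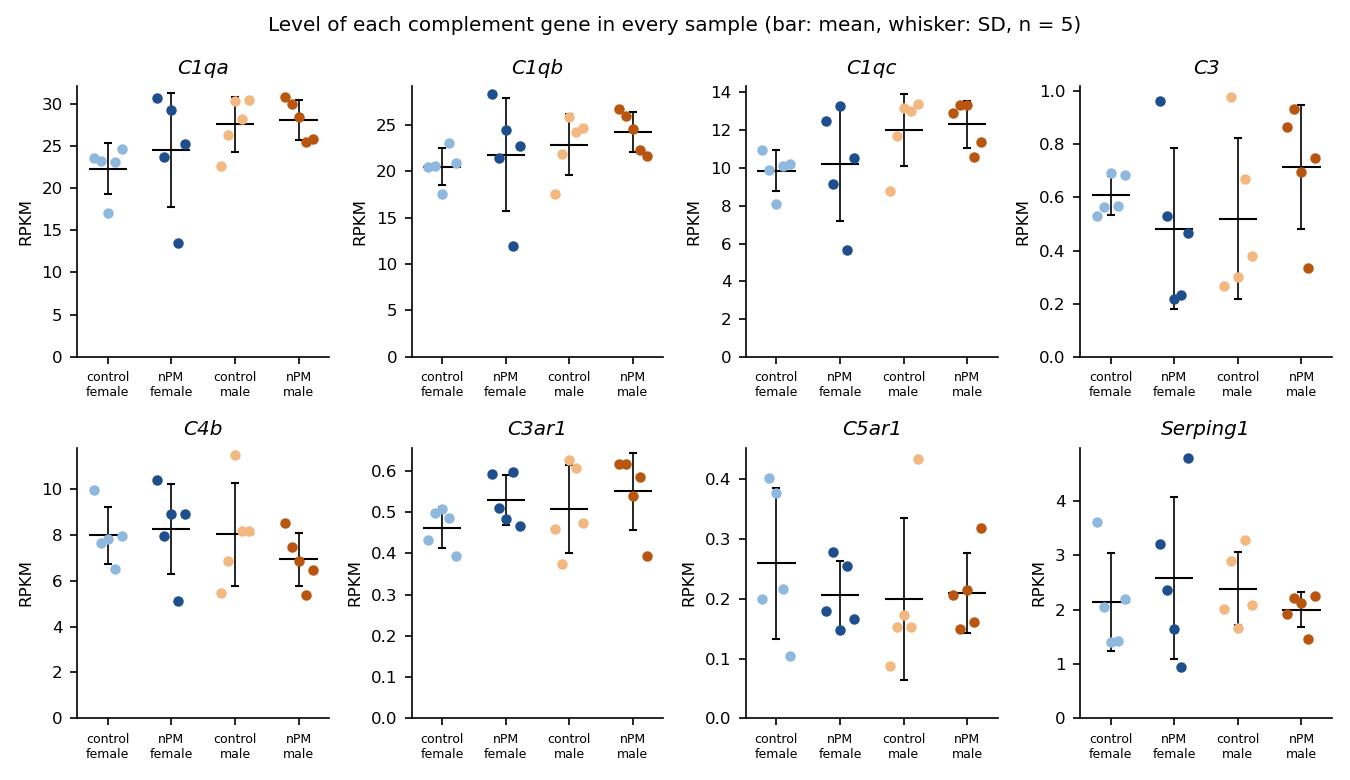
Level of each member in RPKM (vertical axis from 0) in each sample, as points, by group, with the group mean as a bar and the SD as a whisker (n = 5). The ranges of nPM and control samples of the same sex overlapped for all 8 genes, and nPM female 4 was the lowest sample for C1qa, C1qb and C1qc. The share of all tested genes with such an overlap was not computed, so it does not set these genes apart.

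No member passed the study's threshold of p under 0.005 for an effect of nPM. This was 0 of 8 members with limma-voom, a linear model of log2 CPM, the counts scaled to library size, in both sexes together with sex as a covariate, where 28 genes, or 0.141% of all tested, passed. It was 0 of 8 in males, where 0.207% of tested genes passed, and 0 of 8 in females, where 0.0909% passed. It was also 0 of 8 for the interaction, which tests whether the nPM difference in males differed from that in females and which 0.217% of tested genes passed. By edgeR's quasi-likelihood test and by DESeq2, 0 of 8 members passed in each of these fits. In the same order, 26, 41, 24 and 66 of all 19797 tested genes passed by edgeR and 43, 113, 55 and 89 by DESeq2. No member had an unadjusted p under 0.05 by any of these tools, beside 415, 845, 594 and 968 genes by edgeR and 437, 857, 571 and 959 by DESeq2. At such low shares, 0 of 8 does not set the members apart from other genes. After Benjamini-Hochberg adjustment over all tested genes, 0% of genes had limma p under 0.05 in the fits of nPM, while 416, 848, 393 and 751 genes had an unadjusted p under 0.05 in both sexes, males, females and the interaction. DESeq2 gave 1 such adjusted call in males and 1 in females, and edgeR gave 1 in the interaction, none of them a member.

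The members' log2 differences for nPM in both sexes had a median of 0.05, against -0.01 over all tested genes, and 5 of the 8 were above 0. They ran from -0.07 for C4b to 0.14 for C3ar1. The intervals set how large a difference these 20 samples could have missed: with 95% confidence, the nPM level of C1qa in both sexes was 0.905 to 1.23 times that of controls, and the level of C3 was 0.690 to 1.58 times. These intervals, like the permutation tests, treat mice as independent although some shared a litter, so they may be too narrow.

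**Figure D2:**
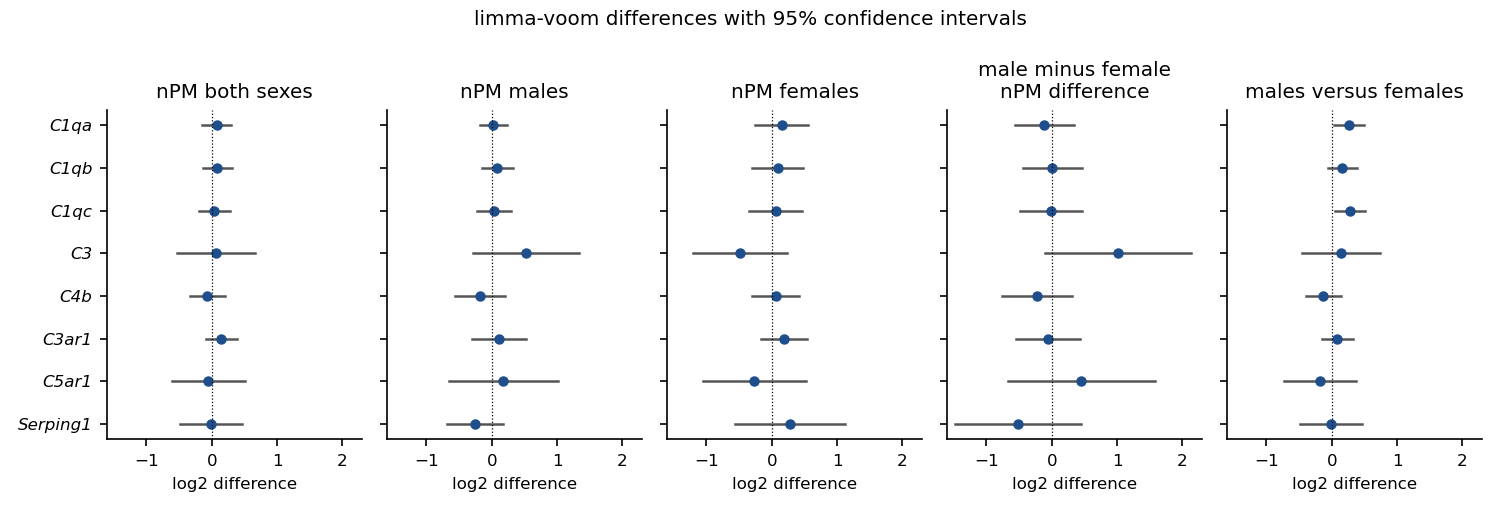
Differences in log2 CPM from limma-voom (points) with 95% confidence intervals (lines) for each member, in the fits of nPM in both sexes, in males and in females, in the male minus female nPM difference, and in males versus females. Every interval for nPM contained 0, and the intervals of C3, C5ar1 and Serping1 were the widest.

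C1qa, C1qb and C1qc encode the A, B and C chains of C1q, the protein that starts the classical pathway. They lie side by side on the minus strand of mm10, C1qb at chr4:136880129-136886187, C1qc at chr4:136889804-136893065 and C1qa at chr4:136895917-136898803, within 18675 bases. No other gene of the deposited map overlapped them. RefSeq promoter sequences (build GRCm38.p6, the same assembly) matched 5 of the 8 members, C1qb, C1qc, C3, C3ar1 and C5ar1, and did not list C1qa, C4b or Serping1. Those of C1qb, C1qc and C3, the components among them, are shown. Each is the minus strand, 5′ to 3′, cut so that it ends before the gene as the deposited map bounds it: C1qb at chr4:136886201-136886450, C1qc at chr4:136893066-136893164 and C3 at chr17:57228137-57228386. Capitals mark GAGGAA, the core bound by the myeloid factor PU.1, or TTGCNNAA, a form bound by C/EBP factors, on either strand.

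C1qb: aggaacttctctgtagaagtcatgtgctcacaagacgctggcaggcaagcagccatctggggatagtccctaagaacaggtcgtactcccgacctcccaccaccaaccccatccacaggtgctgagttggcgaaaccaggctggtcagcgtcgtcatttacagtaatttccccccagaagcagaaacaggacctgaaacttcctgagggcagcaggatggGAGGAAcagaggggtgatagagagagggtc

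C1qc: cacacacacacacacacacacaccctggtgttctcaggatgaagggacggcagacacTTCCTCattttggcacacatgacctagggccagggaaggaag

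C3: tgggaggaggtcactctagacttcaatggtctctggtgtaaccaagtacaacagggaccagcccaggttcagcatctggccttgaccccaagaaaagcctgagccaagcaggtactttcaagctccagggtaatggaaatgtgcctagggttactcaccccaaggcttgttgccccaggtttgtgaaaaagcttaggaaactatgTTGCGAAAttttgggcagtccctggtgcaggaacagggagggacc

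GAGGAA occurred 1 time in the C1qb sequence on the printed strand and 1 time in that of C1qc on the other strand, and 0 times in that of C3. Of 32851 RefSeq promoters, 23.3% held it in the same 250 bases and 9.91% in the 99 bases that correspond to C1qc. TTGCNNAA occurred 1 time in the C3 sequence and in neither C1q sequence, and 9.56% of promoters held it. The sequences of C3ar1 (246 bases) and C5ar1 (48 bases) held neither motif. The motifs did not overlap, and a match describes the letters alone.

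C1qa was at 23.6, 23.2, 17.0, 23.0 and 24.6 RPKM in control females 1 to 5 and at 30.6, 23.7, 29.2, 13.5 and 25.2 in nPM females 1 to 5. It was at 22.6, 26.3, 30.2, 28.1 and 30.4 RPKM in control males 1 to 5 and at 30.8, 29.9, 28.4, 25.4 and 25.7 in nPM males 1 to 5. The nPM females held both a level near the highest of all samples and the lowest of all, nPM female 4, and the groups overlapped in each sex. In log2 terms the nPM difference was 0.03 ± 0.09 (SE) in males (limma adjusted p = 0.985; exact permutation p = 0.786), while females had 0.15 ± 0.19 (limma adjusted p = 0.9999; exact permutation p = 0.635). The male minus female nPM difference was -0.11 ± 0.22 (limma adjusted p = 0.987; exact permutation p = 0.808).

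C1qb ranged over 17.5 to 23.0 RPKM (control females), 11.9 to 28.4 (nPM females), 17.5 to 25.9 (control males) and 21.7 to 26.7 (nPM males). C1qc ranged over 8.11 to 10.97 RPKM (control females), 5.67 to 13.3 (nPM females), 8.81 to 13.4 (control males) and 10.6 to 13.4 (nPM males). Both had their lowest value in nPM female 4, as C1qa did. The nPM differences of C1qb were 0.09 ± 0.11 (SE) in males and 0.09 ± 0.18 in females, and those of C1qc were 0.04 ± 0.12 and 0.06 ± 0.19, all in log2.

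nPM female 4 also had the fewest total counts (19092067), the highest share of mitochondrial counts (15.7%, against 11.1% to 15.2% in the others) and the lowest mean log2 CPM of 17 microglia markers. It held 257 counts of C1qa. Without it, the nPM difference in females moved from 0.15 to 0.32 for C1qa, from 0.09 to 0.26 for C1qb and from 0.06 to 0.23 for C1qc in log2, and none passed p under 0.005. When each sample was left out in turn, the lowest unadjusted limma p in females was 0.0261 for C1qa, 0.0329 for C1qb and 0.107 for C1qc. The part of depth and RNA composition in these values was not tested. Over all 20 samples, the r of C1qa, C1qb and C1qc with log2 total count was 0.55, 0.60 and 0.65 when the group means were kept. After the group means were removed it was 0.45, 0.56 and 0.54 (rho 0.33, 0.52 and 0.51). With the mitochondrial share, r was -0.25, -0.37 and -0.33 when the group means were kept. After their removal it was -0.56, -0.56 and -0.60 (rho -0.40, -0.42 and -0.44), and over both sexes without nPM females 2 and 4 it was -0.04, -0.07 and -0.08. Within females it was -0.71, -0.75 and -0.78, and within males 0.17, 0.17 and 0.05. None of the 16 correlations of a member with either measure passed an adjusted permutation p of 0.05, the lowest being 0.178.

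The proportions of the C1q chains varied less than their levels. C1qa to C1qc was 2.31 ± 0.137 (SD, n = 20) per length and ranged from 2.10 to 2.59, and its SD within groups was 0.084 in log2, against 0.081 from counting noise alone. The SD of C1qa itself within groups was 0.28 in log2. After the group means were removed, C1qa and C1qb correlated with Pearson r = 0.96 and Spearman rho = 0.88 over 20 samples. Their permutation p was 1e-05 for r, the smallest that 100000 permutations within groups can give, and 2e-05 for rho, or 0.00014 and 0.00056 adjusted over the 28 pairs of members. The r was 0.96 in females, 0.98 in males and 0.89 without the samples farthest from the median, nPM females 1 and 4. C1qa with C1qc gave r = 0.96 and rho = 0.85 (permutation p = 1e-05 and 6e-05, adjusted 0.00014 and 0.00084), and C1qb with C1qc r = 0.94 and rho = 0.80 (permutation p = 4e-05 and 0.00044, adjusted 0.000373 and 0.00246). Without nPM female 4 and control male 1, the samples farthest from the median of these pairs, these r were 0.89 and 0.80, and they were 0.97 and 0.94 in females and 0.94 and 0.95 in males.

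Microglia markers varied with the C1q chains. The summed level of the 17 markers, all tested and none at 0 counts in any sample, was 377, 311, 334, 388 and 387 CPM in control females 1 to 5 and 417, 384, 480, 328 and 423 in nPM females. It was 414, 440, 466, 440 and 469 CPM in control males and 424, 463, 455, 428 and 438 in nPM males. No marker passed p under 0.005 for nPM in any of the fits of exposure. C1qc correlated with the mean log2 level of the markers with r = 0.86 and rho = 0.74 (permutation p = 0.0005 and 0.00043, adjusted 0.018 and 0.0155 over 72 pairs of a member and a cell type), with 0.88 in females and 0.87 in males. It was r = 0.65 without nPM females 3 and 4. The values were r = 0.81 and rho = 0.75 for C1qa (permutation p = 0.00461 and 0.00136, adjusted 0.0357 and 0.0245) and r = 0.78 and rho = 0.70 for C1qb (permutation p = 0.00496 and 0.00115, adjusted 0.0357 and 0.0245). Without the same samples r was 0.56 for each, and within females and males it was 0.82 and 0.75 for C1qa and 0.80 and 0.78 for C1qb. The part of microglial content in the C1q levels was not tested.

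The genes most like a member were taken as the 5 with the highest r to it, after removal of group means, among 14675 or 14676 tested genes with a mean count of at least 50. For C1qa these were C1qb, C1qc, Gm10052, Mt3 and Mfsd12 (r = 0.96 to 0.93), for C1qb they were C1qa, Mt3, Tmem219, C1qc and Mrpl4 (0.96 to 0.94), and for C1qc they were C1qa, Gm10052, C1qb, Slc2a6 and Higd2a (0.96 to 0.93). None of the genes other than the chains was on a marker list. Mt3 is a metallothionein of brain, Mrpl4 a mitochondrial ribosomal protein and Gm10052 a processed pseudogene.

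Males were compared with females with exposure as a covariate, and in that fit the chains were the members with the lowest limma p. There, 31.1% of all tested genes passed p under 0.005 while 0 of 8 members did. With adjusted p under 0.05, 40.4% of tested genes passed and 0 of 8 members did by limma, 0 of 8 by edgeR and 1 of 8, C1qc, by DESeq2, which passed 8361 genes in all. Unadjusted limma p was under 0.05 for 2 of 8 members, beside 48.4% of all tested genes. Ages did not overlap between the sexes, so sex and age cannot be told apart. The study's methods describe injections of EdU, a label of dividing cells, for male mice and then state that every animal was injected. Whether females were injected is thus unclear, and if they were not, injection cannot be told apart from sex either. With age as a covariate, 84 genes passed in place of 6147. Because age nearly followed sex, that fit separates the sex difference from age poorly, and the part of age could not be tested.

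C1qc was higher in males by 0.28 ± 0.11 (SE) in log2 (limma adjusted p = 0.0525; exact permutation p = 0.0235) and C1qa by 0.26 ± 0.11 (limma adjusted p = 0.0541; exact permutation p = 0.0191). C1qb differed by 0.16 ± 0.11 (limma adjusted p = 0.247; exact permutation p = 0.160). Males and females overlapped for all 8 members, though the share of all tested genes that overlapped in this way was not computed. Of the 17 microglia markers, 7 passed p under 0.005, beside 31.1% of all tested genes, all higher in males, with a list median of 0.25 in log2 against 0.02 over all tested genes. Beside the same 31.1%, 4 of 11 astrocyte and 1 of 8 oligodendrocyte markers passed as higher in males (medians 0.16 and 0.27), and 7 of 12 endothelial markers as lower (median -0.30). With the microglia marker level as a covariate, the male minus female differences were -0.03 for C1qc and -0.02 for C1qa. With age as a covariate they were 0.023 and -0.10. Without nPM female 4, and with neither covariate, they were 0.19 and 0.17. Over the alternatives, the male minus female difference ranged from -0.40 to -0.12 for C4b and from -1.26 to 0.00057 for Serping1. Unadjusted p was under 0.05 in 8 of 11 alternatives for C1qc and for C1qa. It was so in 1 of 11 for C4b and for Serping1, and in 0 of 11 for C1qb.

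C4b, a form of the component C4 that C1 cuts, lies at chr17:34728380-34743882. Its paralog C4a begins 65209 bases further on, and 35.2% of the 50-base windows of the longest C4b transcript in Gencode also occurred in C4a transcripts, whereas 0% of windows of the other 7 members were shared with another gene. How the authors' counting treated reads that align to both is not given in the sources used here, so the counts of C4b and C4a are uncertain. C4b was at 9.95, 7.63, 7.82, 6.52 and 7.94 RPKM in control females 1 to 5 and at 10.4, 7.94, 8.92, 5.12 and 8.90 in nPM females. It was at 5.44, 6.84, 11.5, 8.16 and 8.15 RPKM in control males and at 8.50, 7.46, 6.86, 5.39 and 6.48 in nPM males. The highest sample was control male 3 and the lowest nPM female 4, and the groups overlapped in each sex. The nPM difference was -0.18 ± 0.18 (SE) in log2 in males (limma adjusted p = 0.963; exact permutation p = 0.429), while females had 0.06 ± 0.17 (limma adjusted p = 0.9999; exact permutation p = 0.889). When each sample was left out in turn, the male difference ranged from -0.31 to -0.049 and the female difference from -0.037 to 0.21.

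C4b moved with the C1q chains across samples. Its r with C1qc was 0.80 and its rho 0.84 (permutation p = 0.00026 and 9e-05, adjusted 0.00182 and 0.00084), with 0.84 in females, 0.82 in males and 0.71 without nPM female 4 and control male 3. The r with C1qa was 0.76 and rho 0.80 (permutation p = 0.00059 and 0.00025, adjusted 0.0033 and 0.00175), and those with C1qb were 0.78 and 0.72 (permutation p = 0.00073 and 0.00192, adjusted 0.00341 and 0.00896). Both r were 0.61 without these samples, and they were 0.80 and 0.78 in females and 0.89 and 0.90 in males. C4b also correlated with 11 astrocyte markers, with r = 0.67 and rho = 0.71 (permutation p = 0.00232 and 0.00201, adjusted 0.0342 and 0.026), 0.67 in each sex and 0.71 without nPM male 1 and nPM female 3. This r was 0.35 when the group means were kept, which did not pass. With microglia markers C4b had r = 0.60 and rho = 0.62 (permutation p = 0.0139 and 0.00652, adjusted 0.0669 and 0.0469), so that pair passed by rho alone. The genes most like C4b were S100a6, Khk, Dpm2, Dhrs1 and Mfsd3 (r = 0.92 to 0.82).

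C3, the component on which all complement pathways meet, lies at chr17:57203970-57228136 and contains the microRNA gene Mir6978 on the same strand. It was at 0.529, 0.565, 0.691, 0.568 and 0.683 RPKM in control females 1 to 5 and at 0.964, 0.529, 0.216, 0.234 and 0.466 in nPM females. It was at 0.268, 0.979, 0.302, 0.671 and 0.380 RPKM in control males and at 0.866, 0.934, 0.695, 0.333 and 0.747 in nPM males. These rest on 22 to 168 counts per sample. Control females lay close together, while each other group held samples that differed by 2.81 times or more, and nPM and control overlapped in each sex.

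The C3 differences pointed opposite ways in the sexes without passing a test. The nPM difference was 0.52 ± 0.37 (SE) in log2 in males (limma adjusted p = 0.963; exact permutation p = 0.270), while females had -0.48 ± 0.33 (limma adjusted p = 0.9999; exact permutation p = 0.262). The male minus female nPM difference was 1.02 ± 0.54 (limma adjusted p = 0.987; exact permutation p = 0.0807), the farthest from 0 among the members. Over the alternatives it ranged from 0.63 with sample quality weights to 1.22 with meningeal fibroblast markers as a covariate, chosen after seeing the data. The male difference ranged from 0.27 to 0.74, with the same weights and covariate, and the female difference from -0.66 to -0.31. When each sample was left out in turn, the male minus female difference ranged from 0.75 to 1.34, the male difference from 0.35 to 0.78 and the female difference from -0.81 to -0.22, and none passed p under 0.005. The lowest unadjusted limma p of these was 0.0164 for the male minus female difference, 0.0293 in males and 0.00906 in females. Over the alternatives, unadjusted p was under 0.05 in 2 of 11, 0 of 12 and 1 of 12, in the same order.

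Markers of the choroid plexus, the epithelium that makes cerebrospinal fluid, varied widely among the samples. Their summed level over 15 genes, all tested and none at 0 counts, was 285, 702, 321, 1008 and 908 CPM in control females 1 to 5 and 14165, 342, 283, 300.1 and 3543 in nPM females. It was 313, 8131, 266, 12470 and 4922 CPM in control males and 380, 5325, 9372, 505 and 1609 in nPM males, and Ttr, the transthyretin gene, was the most abundant at 8.81 to 6078 RPKM. C3 had r = 0.70 and rho = 0.59 with the mean log2 level of these markers (permutation p = 0.00916 and 0.0335, adjusted 0.0507 and 0.127), 0.77 in females, 0.66 in males and 0.56 without control male 3 and nPM female 1. This missed the adjusted threshold, and the part of choroid plexus tissue in the C3 levels was not tested. The 5 genes most like C3 were Cfap161, Lrrc9, Aldh3b1, Armc4 and Dcdc5 (r = 0.91 to 0.84), of which Cfap161 and Armc4 are known for roles in motile cilia. No pair of C3 with another member passed after adjustment.

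**Figure D3:**
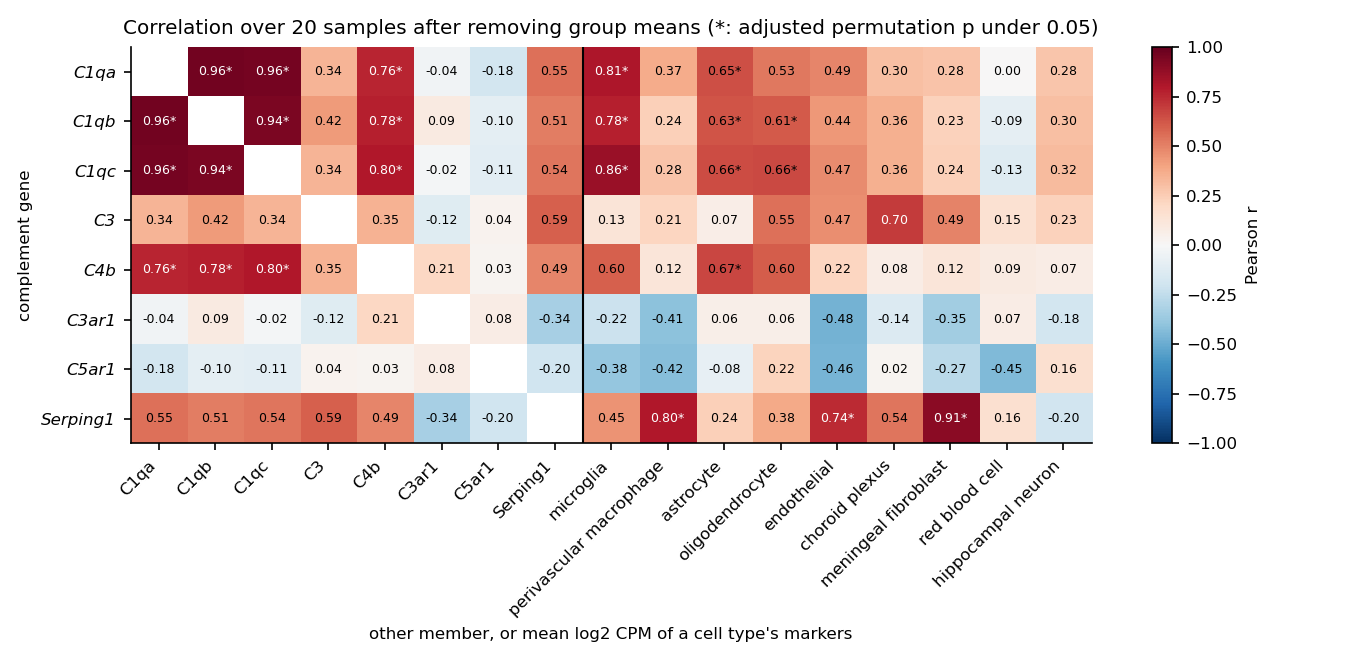
Pearson r over 20 samples, after removal of group means, of each member (down the side) with the other members (left of the line) and with the mean log2 CPM of cell type markers (right of the line), coloured from -1 to 1, with an asterisk where the adjusted permutation p was under 0.05. The C1q chains and C4b formed a block, and Serping1 had its highest r, 0.91, with meningeal fibroblast markers.

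C3ar1 and C5ar1, the receptors of the C3 and C5 fragments, were the members with the fewest counts. C3ar1, at chr6:122847138-122856161, was at 0.431, 0.497, 0.507, 0.485 and 0.393 RPKM in control females 1 to 5 and at 0.591, 0.510, 0.484, 0.598 and 0.465 in nPM females. It was at 0.459, 0.373, 0.626, 0.607 and 0.474 RPKM in control males and at 0.616, 0.618, 0.540, 0.584 and 0.394 in nPM males. The groups overlapped in each sex. The nPM difference in both sexes was 0.14 ± 0.11 (SE) in log2 (limma adjusted p = 0.9998; exact permutation p = 0.140). It was 0.11 ± 0.19 in males, ranging from 0.0090 to 0.22 when each sample was left out in turn, and 0.19 ± 0.16 in females. Its SD within groups, 0.23 in log2, was 1.28 times that of counting noise, with 38 to 100 counts per sample.

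C5ar1, at chr7:16246743-16259540, had 6 to 40 counts per sample. It ranged over 0.104 to 0.401 RPKM (control females), 0.149 to 0.278 (nPM females), 0.0871 to 0.435 (control males) and 0.150 to 0.318 (nPM males), so the groups overlapped. The nPM difference in both sexes was -0.05 ± 0.27 (SE) in log2, with a 95% interval of 0.656 to 1.42 times the control level. It ranged from -0.15 to 0.078 over the alternatives and from -0.16 to 0.087 when each sample was left out in turn. Males had 0.17 ± 0.38 and females -0.26 ± 0.37, and the male minus female nPM difference was 0.45 ± 0.54. No pair of C3ar1 or C5ar1 with another member or with a cell type's markers passed after adjustment, microglia included. The genes most like C3ar1 included Csnk2a1, Lyrm4, Gfer and 1110004F10Rik (r = 0.76 to 0.68), and those most like C5ar1 were Msl2, Pigm, Cyr61, Fbxl17 and Ahcyl1 (r = 0.71 to 0.70), all further from their member than the likest genes of the other members were.

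Serping1, the inhibitor of the C1 proteases, lies at chr2:84765387-84775444. It was at 3.61, 2.04, 1.40, 1.42 and 2.20 RPKM in control females 1 to 5 and at 3.20, 2.36, 1.64, 0.942 and 4.79 in nPM females. It was at 2.00, 2.89, 1.67, 3.28 and 2.08 RPKM in control males and at 1.93, 2.20, 2.12, 1.46 and 2.25 in nPM males. nPM females 5 and 4 were the highest and lowest of all samples, and the groups overlapped in each sex. The nPM difference was -0.26 ± 0.20 (SE) in log2 in males (limma adjusted p = 0.963; exact permutation p = 0.302), while females had 0.28 ± 0.39 (limma adjusted p = 0.9999; exact permutation p = 0.714). The male minus female nPM difference was -0.52 ± 0.46 (limma adjusted p = 0.987; exact permutation p = 0.447). When each sample was left out in turn, the female difference ranged from -0.017 to 0.53, the male difference from -0.37 to -0.12 and the male minus female difference from -0.79 to -0.24.

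Serping1 followed markers of meningeal fibroblasts, the collagen-producing cells of the membranes around the brain. The summed level of these 11 markers, all tested and none at 0 counts, was 151, 82.1, 52.3, 60.6 and 83.8 CPM in control females 1 to 5 and 247, 101, 52.6, 41.2 and 265 in nPM females. It was 240, 232, 45.05, 298 and 136 CPM in control males and 82.1, 135, 217, 87.6 and 106 in nPM males, and Dcn, encoding the proteoglycan decorin, was the most abundant at 2.98 to 53.6 RPKM. The r with their mean log2 level was 0.91 and the rho 0.88 (permutation p = 1e-05 and 2e-05, adjusted 0.00072 and 0.00144), with 0.98 in females, 0.75 in males and 0.91 without control male 3 and nPM female 5. Of the 5 genes most like Serping1, Islr, Mrc2, Col1a2, Col1a1 and Fcgrt (r = 0.95 to 0.93), Islr, Col1a2 and Col1a1 were on that list. With this marker level as a covariate, an alternative chosen after seeing the data, the nPM difference of Serping1 was -0.09 in females and the male minus female difference was 0.08, in place of 0.28 and -0.52. The part of meningeal tissue in the Serping1 levels was not tested further.

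Serping1 also correlated with 7 perivascular macrophage markers, with r = 0.80 and rho = 0.72 (permutation p = 0.00076 and 0.00268, adjusted 0.0182 and 0.0276), 0.90 in females, 0.46 in males and 0.71 without control female 3 and nPM female 5. Its r with 12 endothelial markers was 0.74 and its rho 0.59 (permutation p = 0.00329 and 0.0193, adjusted 0.0342 and 0.099), so that pair passed by r alone. The r was 0.74 in females, 0.84 in males and 0.48 when the group means were kept. Without nPM females 4 and 5 it was 0.49 (permutation p = 0.0617), which did not pass.

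**Figure D4:**
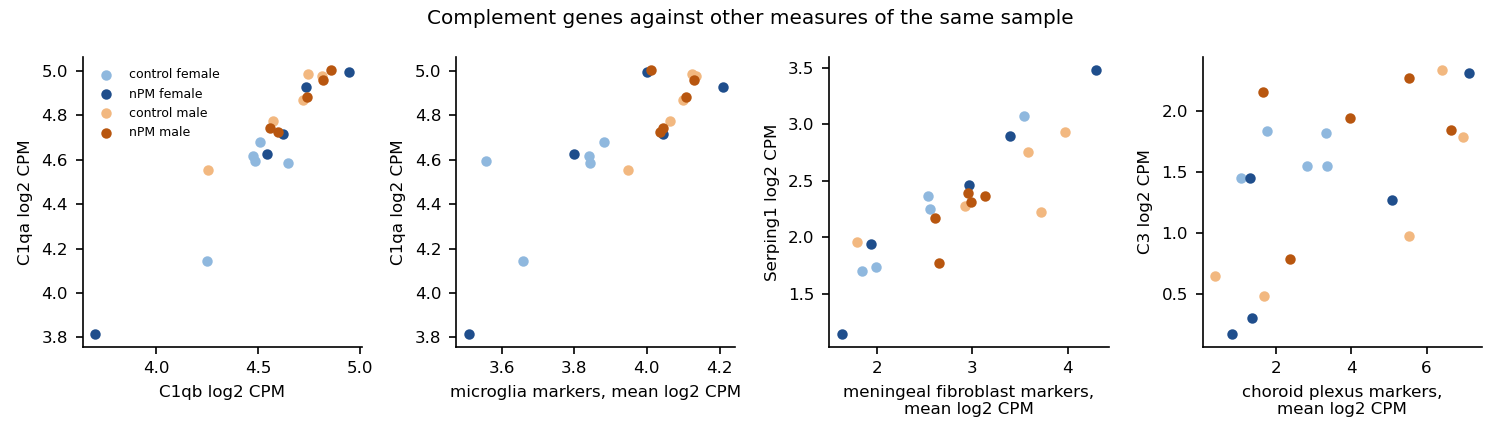
Log2 CPM of C1qa against C1qb and against the mean log2 CPM of microglia markers, of Serping1 against meningeal fibroblast markers, and of C3 against choroid plexus markers, with 1 point per sample coloured by group. nPM female 4 lay at the low end for C1qa and Serping1, and C3 was the most scattered.

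In all, 6 of 28 pairs of members and 12 of 72 pairs of a member and a cell type passed the adjusted permutation p of 0.05 by r, all with r above 0. How many pairs among all tested genes would pass was not counted, so these counts do not set the members apart from other genes. Mt3, on no marker list, had r = 0.95 with C1qb, against 0.78 for the microglia markers. The passing pairs not yet given were the C1q chains with astrocyte markers (r = 0.65, 0.63 and 0.66 and rho = 0.63, 0.69 and 0.64 for C1qa, C1qb and C1qc, adjusted permutation p for r 0.0342, 0.0491 and 0.0342; within females 0.72, 0.71 and 0.83, within males 0.69, 0.60 and 0.47) and C1qb and C1qc with 8 oligodendrocyte markers (r = 0.61 and 0.66, rho = 0.56 and 0.58, adjusted permutation p 0.0463 and 0.0342 for r and 0.0924 for each rho, which did not pass; within females 0.71 and 0.70, within males 0.83 and 0.89). The latter were 0.24 and 0.33 without control male 1 and nPM female 4 and so rested on those samples. Slc1a2 was the most abundant of the astrocyte markers, at a mean of 331 RPKM. Of blood cells, 3 of 5 red blood cell markers were tested, led by Hbb-bs at a mean of 7.72 RPKM, and 1 of 7 neutrophil and monocyte markers, led by S100a9 at 0.529 RPKM. S100a8, Ly6c2, Plac8, Ngp and Camp were at 0 counts in at least 1 sample, as was Alas2 among the red cell markers. For the remaining lists, the most abundant genes were Mrc1 for perivascular macrophages (mean 1.06 RPKM) and Slc2a1 for endothelial cells (15.2 RPKM).

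Other complement genes were taken as 52 genes in lists by role, of which 36 had enough counts to be tested. None of the 36 passed p under 0.005 for nPM in both sexes, in males, in females or in the interaction by limma, and 3, 1, 2 and 3 of them had an unadjusted p under 0.05, beside 2.1%, 4.28%, 1.99% and 3.79% of all tested genes. The most abundant per length were Clu among 20 regulators (clusterin, 150 RPKM), Colec12 among 9 lectin pathway genes (3.17), Cfp among 3 alternative pathway genes (properdin, 3.03), Itgb2 among 7 receptors (1.35), C8g among 7 terminal components (0.523) and C1ra among 6 classical pathway genes (0.370). C1ra and C1s1, which encode the proteases that C1q needs, were thus far below the C1q chains in RPKM.

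In males versus females, 1 of these 36 genes passed as higher in males and 7 as lower, which is 8 of 36 beside 31.1% of all tested genes. Itgam, a subunit of complement receptor 3, had 0.758 ± 0.0823 RPKM (control females; SD, n = 5), 0.993 ± 0.165 (nPM females), 1.16 ± 0.108 (control males) and 1.31 ± 0.181 (nPM males), higher in males by 0.48 ± 0.09 (SE) in log2 (limma adjusted p = 0.000389). Cfp was lower in males by a log2 difference of -0.78 ± 0.11 (limma adjusted p = 3.1e-05), with 3.78 ± 0.622 RPKM in control females and 2.04 ± 0.393 in control males. C4a differed by -0.65 ± 0.17 (limma adjusted p = 0.00513), while C4b, with which it shares sequence, differed by -0.13 ± 0.13. The other lower genes were the regulators Csmd1, Csmd2, Sez6, Sez6l and Sez6l2, whose log2 differences ran from -0.57 to -0.30. With age as a covariate, in a fit that separates sex from age poorly, none of the 8 passed p under 0.005.

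**Figure D5:**
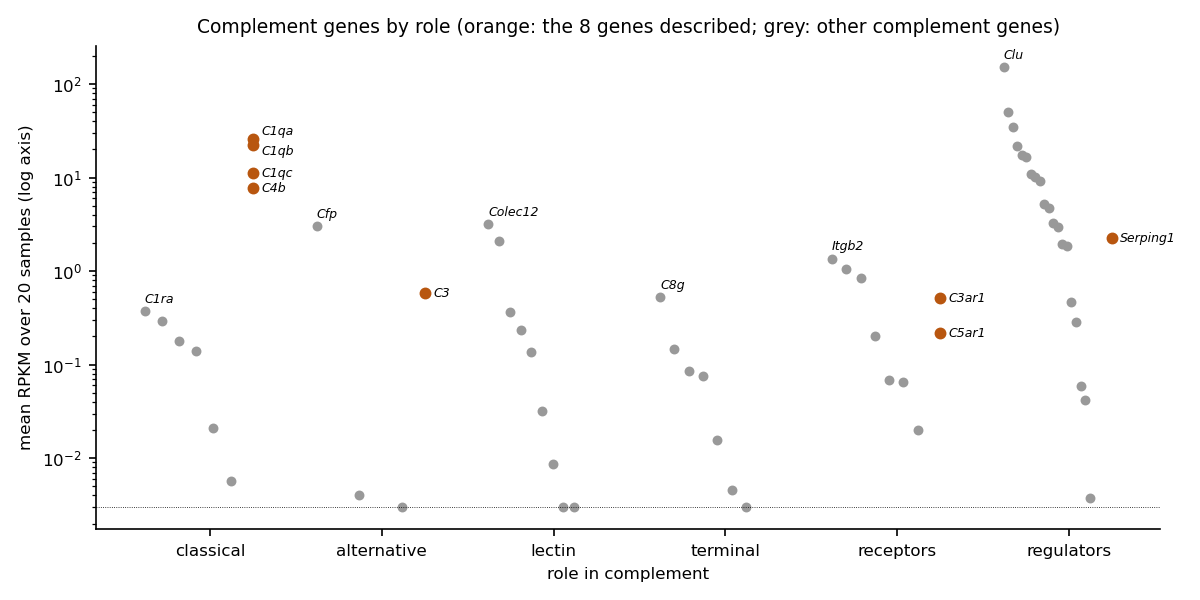
Mean RPKM over 20 samples, on a log axis, of the 8 members (orange, named) and of 52 other complement genes (grey, with the most abundant of each role named), by role. Genes on the dotted line were below the range drawn, and C1qa and C1qb stood above every other classical pathway gene.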

How the data were processed

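RNA-seq of the hippocampus was analysed in 20 mice. Per the labels and the study's methods, the authors depleted ribosomal RNA, trimmed adapters where needed (Trimmomatic), aligned to mm10 (HISAT2) and assigned reads to genes (featureCounts 1.5.0-p3). They deposited whole-number counts of 48709 genes. They also deposited gene lengths and the mean RPKM of each gene, which differed from the recomputed mean by at most 4.91e-11. Strand and multi-mapping settings are not given in the sources used here.

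Low counts were removed by filterByExpr with the 4 groups as design (minimum count 10, minimum total 15), scaled by TMM (edgeR 4.0.16) and fitted with limma-voom (limma 3.58.1, R 4.3.3; offset 0.5). RPKM here used TMM-scaled counts. Single members were compared by two-sided exact permutation of log2 CPM (252 groupings within a sex, smallest p 0.00794; 63504 over both sexes). Correlations were taken after removal of group means unless stated, with 100000 permutations within groups, in families of 28, 72 and 16 pairs. Intervals cover the spread between samples, and floors of 3 counts cover counting error only.

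Named genes were the 8 members; other complement genes with p under 0.005 or the highest RPKM of a role; the 5 genes most like each member; and the most abundant marker of each cell type and those at 0 counts. Members and lists were chosen with earlier results of these data known. Alternatives covered normalization (RLE), filtering, tests (DESeq2 1.42.0, edgeR), replicate block, covariates, weights and each sample left out. On simulated data each fit called most of the genes changed 2-fold, all called ones in the right direction, and fewer unchanged genes than expected by chance. No pair of samples of a group agreed within sampling noise (13.5 to 73.7 times it, 40 pairs). Promoters came from RefSeq, and transcript windows from Gencode. Some genes that the naming rule selects are not reported here.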

Additional observations from a re-analysis of the deposited data

Results flagged for a closer look

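Of 32 groups of 5 samples checked (8 members in 4 groups), 2 held a sample far from the others by Dixon's ratio of the gap to the range, and chance alone gives about 1 in 20 groups. C1qa in control female 3 was at 4.15 log2 CPM, with the nearest of the other control females at 4.58, a gap of 0.821 of the range. C3 in nPM male 4 was at 0.79 log2 CPM, with the nearest of the other nPM males at 1.84, a gap of 0.712 of the range. No member's nPM effect differed between the sexes by the test of the interaction.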

How the results depend on the processing

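The count of 0 of 8 members past p under 0.005 held in the fits of nPM and of the interaction under each alternative and with each sample left out, and in males versus females under all but sample quality weights, where it was 1 (C1qc, 0.27). Over the alternatives, the sign of a member's log2 difference changed in 7 of 88 values in both sexes, 3 of 96 in males, 8 of 96 in females, 12 of 88 for the interaction and 10 of 88 in males versus females, none of them past the threshold. With each sample left out it changed in 20 of 160, 7 of 80, 7 of 80, 19 of 160 and 9 of 160 values of the same fits. The number of all genes past it moved more. For nPM in both sexes (28) it was 71 without a filter, 43 with DESeq2 and 53 with quality weights; in males (41) 130, 113 with DESeq2, 71 with choroid plexus and 86 with microglia markers as a covariate; in females (18) 87, 55 with DESeq2, 63 with microglia markers and 44 with quality weights. For the interaction (43) it was 149 without a filter, 66 with edgeR, 89 with DESeq2, 139 with microglia markers and 28 with meningeal fibroblast markers, a covariate added after seeing the data. More genes are tested without a filter, and otherwise the cause was not tested. Leaving out each sample gave 17 (without control female 1) to 47 (without nPM female 4) in both sexes, 23 (without nPM male 5) to 78 (without nPM male 4) in males, 10 (without nPM female 5) to 48 (without nPM female 4) in females, 24 (without control female 3) to 77 (without control female 1) for the interaction and 5485 to 6334 in males versus females, and 0 members in each. With age as a covariate, in a fit that separates sex from age poorly, the last was 84 genes, and Csmd1 and Sez6l turned to 0.017 and 0.088. The replicate numbers of the labels did not pair the samples: 3 of 10 same-numbered pairs correlated above 0.1, and 0 of 10 were the closest. With the replicate number as a block, the counts were 20, 35, 22, 50 and 5739, and 0 members passed in each fit. Without mitochondrial genes in the library size, C1qa was at 29.4 RPKM. Limits are 5 samples per group, unknown litters, mixed cell types, sex not told apart from age or, if females were not injected, from injection, and few counts of C5ar1.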
